A study of Homo sapiens with 6 samples.

Results

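The insulin-like growth factor (IGF) ligands, receptors and binding proteins were taken as the 10 genes IGF1, IGF2, IGF1R, IGF2R and IGFBP1 to IGFBP6, found by gene symbol in a deposited table of 27009 genes. Of the 10 genes, 9 had values, and IGF1 was not analysed here. RNA-seq libraries had been made from cells labelled Hep3B, a liver cancer cell line, in which PD-L1 (gene CD274) had been knocked out. The vector group (3 libraries) carried an empty vector. The nPD-L1 group (3 libraries) carried a mutated PD-L1 that localizes to the nucleus, delivered by lentivirus in a pCDH-CMV-Puro vector. Infected cells were selected with puromycin or G418, and the paper does not say which was used for these lines. Both groups share the PD-L1 knockout. Whether they also share the vector backbone and the drug is not given there. Nothing in the labels says that the 3 libraries of a group came from separate cultures, so that p-values measure only the spread between these libraries, which may be technical.

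IGF1 and IGF2 are secreted growth factors that bind IGF1R, a receptor tyrosine kinase whose adaptors IRS1 and IRS2 feed PI3K and AKT. IGF2R, the cation-independent mannose 6-phosphate receptor, carries no kinase and clears IGF2 besides sorting lysosomal enzymes. The 6 high-affinity binding proteins hold the ligands outside the cell, and liver is a main source of circulating IGF1 and of IGFBP1, a gene that insulin represses and FOXO factors activate.

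The family resemblance of the binding proteins is visible in their coding DNA. The stretch below encodes a cluster of cysteines in the amino-terminal domain, which is a known signature of the family, and is shown because it separates IGFBP6 from the other 5 members. It was read from the GRCh38 genome, 5′ to 3′ on the coding strand, with cysteine codons in capitals.

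IGFBP1: ggcTGCggcTGTTGCccgatgTGC
IGFBP2: ggcTGCggcTGCTGCtcggtgTGC
IGFBP3: ggcTGCggcTGCTGCctgacgTGC
IGFBP4: ggcTGCggcTGTTGCgccactTGC
IGFBP5: ggcTGCggcTGCTGCatgaccTGC

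The stretch of IGFBP1 lies in its coding sequence at chr7:45888818-45888841 on the plus strand. Of its 24 bases, 21 were the same in IGFBP2 and in IGFBP3, 20 in IGFBP4 and 19 in IGFBP5, and no in-frame match was found in IGFBP6. Over the whole transcripts the members were easily told apart, since no stretch of 50 bases was shared between any 2 of them. IGFBP1, IGFBP3, IGFBP4, IGFBP5, IGFBP6, IGF1R and IGF2R shared 0% of such stretches with any other annotated gene, IGFBP2 shared 1.17%, and IGF2 shared 23.4%, mostly with the readthrough gene INS-IGF2.

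The values analysed were reads per gene divided by a size factor of each library, called scaled reads here, and they summed to between 18082164 and 19682128 per library. Whole reads were taken from 4 libraries, which held between 17427519 and 22253295 reads on genes. Vector replicate 1 and nPD-L1 replicate 2 were left out by a set rule, although their values also came out whole. The labels and the data did not meet at some points. Of 13 hepatocyte marker genes with values, ALB, TTR, APOB, AHSG, APOA1 and TF were at 3.39 scaled reads or less in every library, while the fibrinogen gene FGA was between 1861 and 3286. CD274, the gene targeted by the knockout and supplied again in mutated form, was at 28.3, 38.4 and 47.8 scaled reads with vector and at 16.8, 19.2 and 30.9 with nPD-L1, so that it was not higher with nPD-L1 (log2 fold change −0.76, adjusted p = 0.339, limma). The paper examined PD-L1 protein in its stable Hep3B cells by immunoblot and cell fractionation, which these RNA values do not measure. The group names below are those of the labels. The summed hepatocyte markers ranged from 5774 to 7816 scaled reads with vector and from 4517 to 5032 with nPD-L1, and the summed fibroblast and stellate markers from 174 to 245 with vector and from 594 to 659 with nPD-L1, where COL1A1 alone was at 445 to 487. Endothelial markers summed to at most 11.1 and leukocyte markers to at most 18.1 scaled reads. The part of these differences in the results below was not tested.

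As labelled, the comparison sets PD-L1 knockout cells given nuclear PD-L1 against PD-L1 knockout cells given a vector. IGFBP1 was lower with nPD-L1, and it was the only one of the 8 tested members that passed the test. The other 5 binding proteins and both receptors did not pass it, and the ligand IGF2 was listed at or near 0 in every library. Over all 15076 genes tested, 0.922% were called lower and 4.04% higher with nPD-L1 at an adjusted p under 0.05 (limma with Benjamini-Hochberg adjustment over all tested genes). Among the members, 1 of 8 was called lower and 0 of 8 higher, and a single gene is too few to set against that background. No member was higher at an unadjusted p under 0.05 either, where 9.53% of all genes were. The median log2 fold change of the 8 members was −0.10, beside −0.02 over all genes tested. DESeq2 on the 4 libraries with recovered reads also called 1 member, and limma and edgeR on those libraries called 0.

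IGF2 encodes the fetal growth factor, and lies at chromosome 11, 2129112 to 2149603, minus strand (GRCh38, GENCODE coordinates as deposited). It was listed at 0 in 5 libraries and at 2.08 scaled reads, which were 2 reads, in vector replicate 3. A floor of 3 reads per library corresponds to between 2.52 and 3.39 scaled reads in the 4 libraries with recovered reads, which covers counting error only. IGF2 was therefore not tested, and a difference between the groups was not detectable from these values. The annotation holds a further IGF2 entry that shares all 20492 bases of this one on the same strand, and INS-IGF2 shares 17066 bases, and neither was analysed here. How reads that fall in more than 1 of these genes were counted is not given in the sources used here, so that the near-0 values are those of this entry only. Its antisense transcript IGF2-AS reached at most 2.02 scaled reads. H19, the noncoding RNA beside IGF2, was at 24.2, 15.8 and 17.7 scaled reads with vector and at 57.1, 9.10 and 38.6 with nPD-L1. The groups overlapped for H19 (log2 fold change 0.52 ± 0.57 (SE, n = 3), adjusted p = 0.740, limma).

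IGF1R, the signalling receptor, was at 3639, 2311 and 3719 scaled reads with vector and at 3668, 3246 and 3563 with nPD-L1, each in the order of replicates 1, 2 and 3, which is kept for every gene below. Vector replicate 2 was the low library, and the other 5 lay close together. The log2 fold change was 0.15 with a 95% interval from −0.22 to 0.52 (adjusted p = 0.748, limma). Without vector replicate 2 its sign turned (−0.077, adjusted p = 0.751, limma). That library stood apart by gene length: its median log2 deviation from its group was −0.17 over genes of 10 kb or more and 0.18 over genes of 2 kb or less, and the deposited length of IGF1R is 13941 bases. Vector replicate 3 deviated the other way (0.13 and −0.13), and no nPD-L1 library by more than 0.0631. Of the genes annotated as overlapping IGF1R or IGF2R, those with values reached at most 10.4 scaled reads. MIR4714 and AC069029.1, which is antisense to IGF1R over 12877 bases, had no values.

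IGF2R, the scavenging receptor, was at 2156, 1765 and 2297 scaled reads with vector and at 2118, 2549 and 2551 with nPD-L1. In 2 of the 3 nPD-L1 libraries it was above every vector library, and the third lay among the vector values. The log2 fold change was 0.22 with a 95% interval from −0.06 to 0.50 (adjusted p = 0.503, limma). The deposited length of IGF2R is 17843 bases, and vector replicate 2 was again the lowest library. Without that library the log2 fold change was 0.11 (adjusted p = 0.681, limma). With all 6 libraries and a trend with gene length removed it was 0.09 (adjusted p = 0.718, limma). INSR, the insulin receptor, which also forms hybrids with IGF1R, was at 151, 145 and 151 scaled reads with vector and at 197, 226 and 199.7 with nPD-L1. Its groups did not overlap, but it did not pass the test (log2 fold change 0.47 ± 0.14 (SE, n = 3), adjusted p = 0.113, limma).

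**Figure D1:**
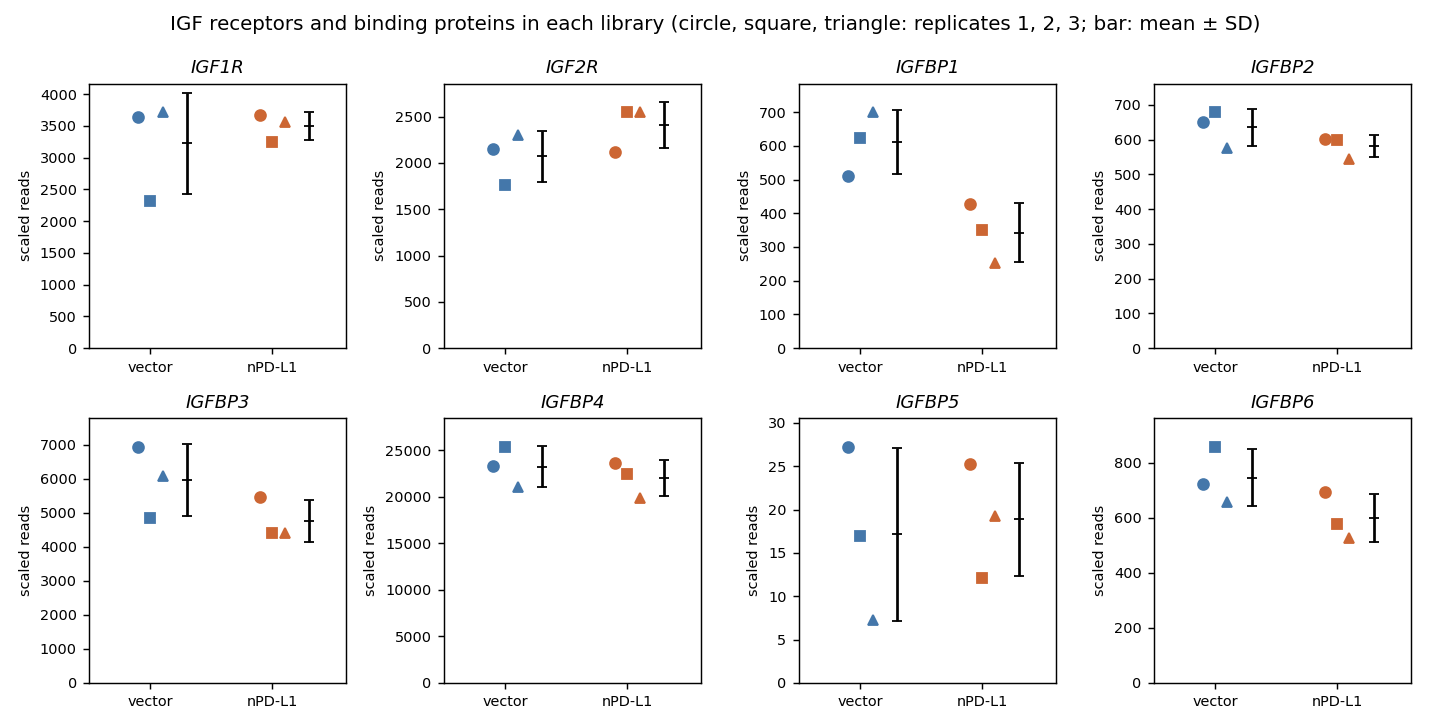
Scaled reads (vertical axes, each starting at 0) of the 2 receptors and 6 binding proteins in the 3 vector (blue) and 3 nPD-L1 (orange) libraries, with the symbols circle, square and triangle for replicates 1, 2 and 3 and black bars for mean ± SD. Only for IGFBP1 do all 3 nPD-L1 libraries lie below all 3 vector libraries.

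IGFBP1 encodes the insulin-repressed binding protein of liver and decidua, and lies at chromosome 7, 45888357 to 45893668, plus strand. Its scaled reads were 511, 625 and 700.4 in vector replicates 1, 2 and 3, and 427, 349 and 253 in the nPD-L1 libraries of the same numbering. Every nPD-L1 library was below every vector library, and the gap between the nearest libraries (427 and 511) was smaller than the spread within either group. The vector libraries averaged 612 ± 95.5 (SD, n = 3) and the nPD-L1 libraries 343 ± 87.2 (SD, n = 3). IGFBP1 fell by 0.85 on the log2 scale of value + 1 (SE 0.19, 95% interval −1.28 to −0.43, adjusted p = 0.0273, limma), a change of −44.7%. Among all genes tested, 8.54% were lower and 12.0% higher without overlap. In bulk RNA, fewer cells that express a gene and less of its RNA per cell cannot be told apart. The exact two-sided permutation test gave p = 0.1, the smallest that 3 against 3 libraries allow.

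The call of IGFBP1 rested on single libraries. The adjusted p was 0.0535 without vector replicate 3, 0.0746 without nPD-L1 replicate 2 and 0.115 without nPD-L1 replicate 3 (limma). The log2 fold change stayed below 0 in all 19 alternatives, from −1.03 to −0.65, and the call was kept in 14 of them.

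**Figure D2:**
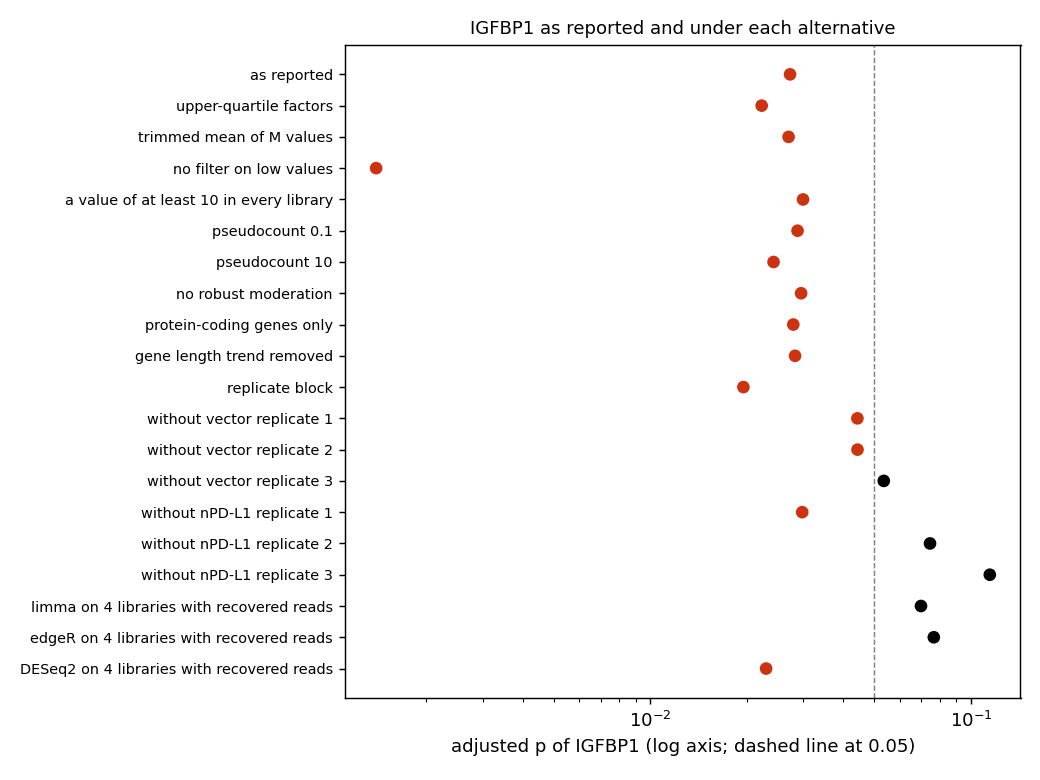
Adjusted p of IGFBP1 (horizontal log axis, dashed line at 0.05) as reported and under each of 19 alternatives (rows), in red where below 0.05. The 5 black points are 3 fits that leave out 1 library and the limma and edgeR fits on 4 libraries.

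IGFBP3, the main carrier of IGFs in blood, lies 18.6 kb from IGFBP1 on chromosome 7. It was at 6941, 4859 and 6083 scaled reads with vector and at 5459, 4394 and 4398 with nPD-L1. The groups overlapped, since vector replicate 2 was below nPD-L1 replicate 1. The log2 fold change was −0.32 ± 0.14 (SE, n = 3; adjusted p = 0.346, limma). Without vector replicate 2 it was −0.46 and passed the test (adjusted p = 0.0126, limma). With all 6 libraries and a trend with gene length removed it did not pass (−0.36, adjusted p = 0.227, limma).

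IGFBP6, which prefers IGF2, was at 722, 858 and 656 scaled reads with vector and at 695, 578 and 526 with nPD-L1. The highest nPD-L1 library was above the lowest vector library. The log2 fold change was −0.31 ± 0.14 (SE, n = 3; adjusted p = 0.346, limma). IGFBP1, IGFBP3 and IGFBP6 were the 3 of 8 members lower at an unadjusted p under 0.05, where 4.71% of all genes were.

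IGFBP4, which inhibits IGF action until it is cut by the protease PAPPA, had the highest values of the members. It was at 23297, 25378 and 21024 scaled reads with vector and at 23633, 22454 and 19860 with nPD-L1. The values interleaved, and the log2 fold change was −0.08 with a 95% interval from −0.34 to 0.18 (adjusted p = 0.813, limma). PAPPA itself was at 456, 272 and 581 scaled reads with vector and at 439, 435 and 476 with nPD-L1 (log2 fold change 0.11, adjusted p = 0.868, limma).

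IGFBP2, another binding protein made by liver, was at 650.0, 679.9 and 577 scaled reads with vector and at 602, 599 and 545 with nPD-L1. The log2 fold change was −0.13 with a 95% interval from −0.38 to 0.13 (adjusted p = 0.689, limma). Its neighbour IGFBP5, 7.67 kb away on chromosome 2, was the lowest tested member. IGFBP5 was at 27.3, 16.9 and 7.27 scaled reads with vector and at 25.2, 12.1 and 19.3 with nPD-L1. At these values the interval was wide, from −0.86 to 1.35 around a log2 fold change of 0.25 (adjusted p = 0.865, limma), and the sign turned without vector replicate 3 (−0.24).

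**Figure D3:**
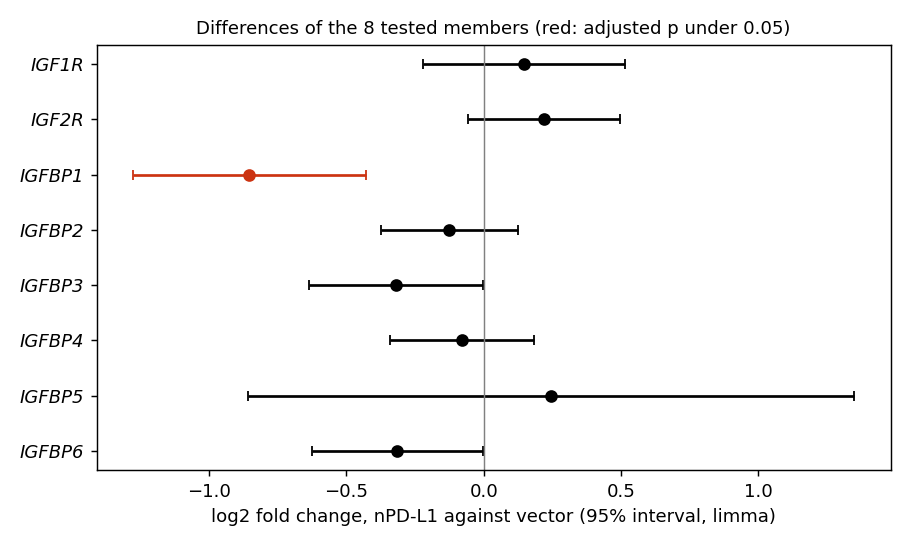
Log2 fold change of nPD-L1 against vector (horizontal axis, 0 at the grey line) for the 8 tested members (rows), with 95% intervals from limma and IGFBP1 in red as the member with an adjusted p under 0.05. The interval of IGFBP1 runs from −1.28 to −0.43, and that of IGFBP5 is the widest.

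Levels can be compared between members only per length, as scaled reads per kb of the deposited gene length. With vector, IGFBP4 was highest at 10560.4 ± 990 per kb (SD, n = 3), at the 99.6th percentile of tested genes. IGFBP3 followed at 1304 ± 229, IGFBP6 at 554 ± 76.8, IGFBP1 at 370.2 ± 57.8 and IGF1R at 231 ± 56.7 per kb. IGFBP2 at 133 ± 11.1 and IGF2R at 116 ± 15.4 per kb were the only neighbours among the tested members whose ranges overlapped with vector. IGFBP5 was at 2.66 ± 1.55 per kb. With nPD-L1 the ranges of IGF1R (251 ± 15.8 per kb) and IGFBP1 (207 ± 52.8 per kb) overlapped, and so did those of IGF2R and IGFBP2.

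IGFBP4 made up 80.2% to 85.5% of the 6 binding protein levels per kb in each library. The share of IGFBP1 was 2.36%, 2.75% and 3.55% in vector replicates 1, 2 and 3 and 2.01%, 1.77% and 1.44% in nPD-L1 replicates 1, 2 and 3. These shares did not overlap between groups and come from the same values as the call of IGFBP1. The share of IGFBP2 stayed between 0.983% and 1.07% in all 6 libraries.

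**Figure D4:**
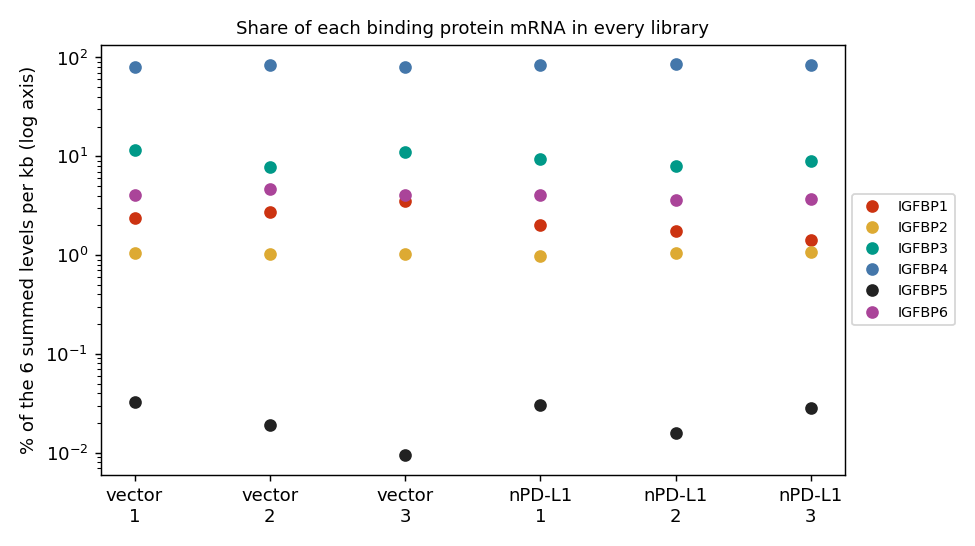
Share of each of the 6 binding proteins in their summed level per kb (vertical log axis, percent) in the 6 libraries (horizontal axis). IGFBP4 lies at 80.2% or more throughout, and IGFBP1 (red) is at 2.36% to 3.55% with vector and at 1.44% to 2.01% with nPD-L1.

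Over the 6 libraries, the genes whose log2 values followed IGFBP1 most closely were IBA57 (Pearson r = 0.999), AL391244.1 (r = 0.993) and PITHD1 (r = 0.989), out of 10724 tested genes that averaged 100 scaled reads or more. The points share the libraries and the group difference, and with 6 libraries a likeness of this size is a description only. The correlation does not measure the size of a change. The log2 fold changes of IBA57, AL391244.1 and PITHD1 were −0.31, −0.28 and −0.48, beside −0.85 for IGFBP1. None of the 3 passed the test (adjusted p = 0.295, 0.430 and 0.0523, limma).

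Other genes of the pathway were taken from a list of 68 genes, of which 65 had values and 60 were tested. With nPD-L1, 4 were called higher (FOXO1, PHLPP1 and SOS2 among them) and 3 lower (STC2, IRS2 and SOCS2), together 11.7% of those tested, beside 4.96% of all genes. The list was written with earlier results of these data known, so that its share of called genes is a description and no test of enrichment. The median log2 fold change of the list was 0.08.

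FOXO1, a transcription factor that AKT excludes from the nucleus and that is known to activate IGFBP1, was at 129, 188 and 143 scaled reads with vector and at 451, 488 and 502 with nPD-L1. Every nPD-L1 library was above every vector library, and FOXO1 rose by 1.66 ± 0.16 on the log2 scale (SE, n = 3; adjusted p = 0.000118, limma). FOXO1 was called in all 19 alternatives.

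IRS2, an adaptor of the IGF1 and insulin receptors, was at 4218, 4259 and 3316 scaled reads with vector and at 2046, 2453 and 2229 with nPD-L1. The groups did not overlap, and IRS2 fell by 0.80 on the log2 scale (SE 0.12, adjusted p = 0.00279, limma). The call was kept whichever single library was left out. On the 4 libraries with recovered reads it was lost with limma (adjusted p = 0.0508) and edgeR (adjusted p = 0.0502) and kept with DESeq2 (adjusted p = 0.00536). Its relative IRS1 was at 2198, 1294 and 2459 scaled reads with vector and at 1321, 1096 and 1145 with nPD-L1. Vector replicate 2 fell among the nPD-L1 values, and IRS1 did not pass the test (log2 fold change −0.69, adjusted p = 0.0986, limma). It passed without that library (−0.97, adjusted p = 9.63e-06, limma), and also with all 6 libraries once a trend with gene length was removed (−0.79, adjusted p = 0.0222, limma). Leaving out any other single library, IRS1 did not pass (adjusted p from 0.171 to 0.365, limma). Nor did it on the 4 libraries with recovered reads (adjusted p = 0.722 with limma, 0.588 with edgeR and 0.524 with DESeq2).

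STC2, an inhibitor of PAPPA, was at 4900.4, 3221 and 5941 scaled reads with vector and at 2558, 2175 and 2218 with nPD-L1. It fell by 0.98 on the log2 scale (SE 0.19, adjusted p = 0.0118, limma). SOCS2, which restrains growth hormone signalling, was at 307, 273 and 421 scaled reads with vector and at 177, 203 and 183 with nPD-L1. It fell by 0.80 on the log2 scale (SE 0.17, adjusted p = 0.0227, limma). In each of STC2 and SOCS2 the vector libraries were spread more widely than the nPD-L1 libraries. The call was lost without vector replicate 1 or without any 1 nPD-L1 library, with adjusted p from 0.0511 to 0.122 (limma). On the 4 libraries with recovered reads, STC2 was lost with limma (adjusted p = 0.174) and edgeR (0.123) and kept with DESeq2 (0.0195). There SOCS2 was lost with limma (adjusted p = 0.127), edgeR (0.101) and DESeq2 (0.0514).

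SOS2, an exchange factor for RAS, rose by 0.70 (adjusted p = 0.00503), and PHLPP1, a phosphatase of AKT, by 0.71 on the log2 scale (adjusted p = 0.0150, limma). The call of SOS2 was kept whichever single library was left out. On the 4 libraries with recovered reads it was lost with limma (adjusted p = 0.0851) and edgeR (0.0778) and kept with DESeq2 (0.0402). The call of PHLPP1 was lost without vector replicate 1 or any 1 nPD-L1 library (adjusted p 0.0505 to 0.0968, limma). On the same 4 libraries it was lost with limma (adjusted p = 0.164), edgeR (0.153) and DESeq2 (0.145). The IGF2 mRNA-binding proteins IGF2BP1, IGF2BP2 and IGF2BP3 did not pass the test, with log2 fold changes of 0.21, 0.08 and 0.34. IGFBP7, a low-affinity relative, was at 12.5 scaled reads or less and IGFALS, which joins the IGFBP3 complex in blood, at 2.89 or less in every library, and neither was tested.

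**Figure D5:**
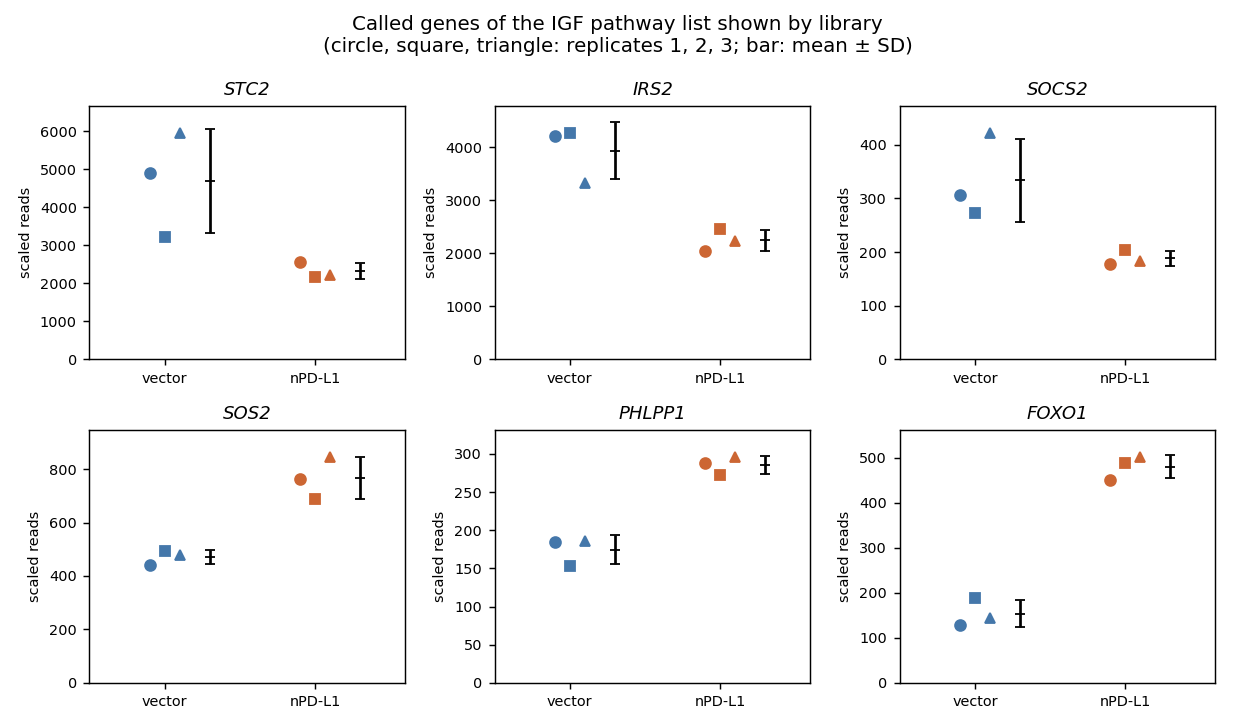
Scaled reads (vertical axes, each starting at 0) of 6 of the 7 called genes of the pathway list in the 3 vector (blue) and 3 nPD-L1 (orange) libraries, with symbols for replicates 1, 2 and 3 and black bars for mean ± SD. STC2, IRS2 and SOCS2 are lower and SOS2, PHLPP1 and FOXO1 higher in every nPD-L1 library.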

How the data were processed

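RNA-seq had been done on 6 libraries, 3 per group. Per the labels, the authors' processing named HISAT2 2.0.5, CASAVA and the hg38 build. The counting tool is not given in the sources used here. The kit is not stated to mark strand, so antisense reads cannot be told apart. The deposited values are a signal, reads per gene divided by a size factor of each library, although presented as raw: low values were whole multiples (within 0.1 read) of 1 step per library. In every library 100% of values above 0 came out whole. By a set rule, steps within 0.02 of 1 were not accepted. Recovered reads were therefore used for 4 libraries, without vector replicate 1 and nPD-L1 replicate 2. Columns of the authors' own comparisons were not used. Gene coordinates matched GENCODE for 100% of genes.

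The planned test was kept: limma 3.58.1 (R 4.3.3; trend, robust) on log2(value + 1), over genes with at least 10 in 3 or more libraries, with Benjamini-Hochberg adjustment over all of them, called at adjusted p under 0.05. Fold changes on this scale understate changes of low genes. edgeR 4.0.16 and DESeq2 1.42.0 were run on recovered reads. Data were simulated for this comparison (15018 genes) with the same dispersion for every gene and without a gene length effect. There the test recovered 72.6% of genes changed by 0.8 and 92.9% of those changed by 1 on the log2 scale. Of the calls, 6.81% were of unchanged genes. These shares are not the power for the real libraries, where vector replicates 2 and 3 deviated with gene length.

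The members and lists were chosen with earlier results of these data known. Named were all members, called pathway genes and a fixed set of pathway genes, the 3 genes most like a called member, and CD274; some named genes are not reported here. Promoters came from RefSeq (GRCh38.p14), which gave 8 of 10 members.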

Additional observations from a re-analysis of the deposited data

How the results depend on the processing

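The direction of IGFBP1, IGFBP2, IGFBP3, IGFBP4, IGFBP6 and IGF2R was the same in all alternatives run; without 1 library the log2 fold change of IGF1R ran from −0.077 (reversed, without vector replicate 2) to 0.27, and that of IGFBP5 from −0.24 (reversed, without vector replicate 3) to 0.65. The cause was not tested. Leaving out 1 library moved the members called lower from 1 to between 0 and 2 (2 without vector replicate 2), the pathway genes called lower from 3 to between 1 and 5 and those called higher from 4 to between 3 and 5, and all genes from 609 higher and 139 lower to between 331 and 791 higher and between 76 and 242 lower. Removing a gene length trend gave 5 pathway genes lower. On 4 libraries, limma gave 0 members lower, 2 pathway genes higher and 0 lower, and 229 genes higher and 52 lower; edgeR gave 0, 2, 0, 234 and 54; DESeq2 gave 315 genes higher and 83 lower. At an unadjusted p under 0.05, limma called 3 members lower, 12 pathway genes higher and 6 lower, and 1436 genes higher and 710 lower. With a 2-fold minimum these were 0, 2, 0, 306 and 68.

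Whether the replicate numbers pair the libraries is not settled by these values. Deviations of same-numbered libraries correlated at −0.0127, 0.229 and 0.131. Vector replicates 2 and 3 correlated best with the nPD-L1 library of their own number, and vector replicate 1 with nPD-L1 replicate 3 (0.0738). With the replicate block, 927 genes were higher and 258 lower, 5 pathway genes were lower (IRS1 with an adjusted p of 0.00512 and PIK3R1 of 0.0364 beside the other 3, limma), and the log2 fold change of IGFBP1 was −0.85 (adjusted p = 0.0195, limma).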

Other observations

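The promoter windows of the members, 250 bases before to 50 after each start in RefSeq (GRCh38.p14), were searched on both strands for 5 motifs, which were picked after the letters of these windows had been read, so that the matches are a description only. Of the 11 windows of 8 members, GTAAACA, a core that FOXO factors bind, was in 1 window each of IGFBP6 and IGF1, and 3.42% of 35116 windows hold it. CACGTG was in the window of IGF2R, 3 times, and 7.26% of windows hold it. ACGTG, which lies within CACGTG, was in 1 window each of IGF2R, IGF1R and IGFBP2, beside 21.4% of windows. TATAAA was in the window of IGFBP4, beside 11.5% of windows, and GTCTAGAC in no window of a member, beside 0.202%. The windows of 5 of the 7 called pathway genes (FOXO1, IRS2, PHLPP1, SOS2 and STC2) held 0 matches to any of the 5 motifs. IGFBP1 and IGF2 were not in the table of promoters.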
